A study of Mus musculus with 12 samples.

Results

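The genes of MHC class I antigen presentation were examined in RNA-seq of pre-selection CD4+CD8+ (DP) thymocytes. A set of 10 genes was taken by symbol out of the 23234 features in the table: the class I light chain B2m, the heavy chains H2-K1 and H2-D1, the peptide transporter genes Tap1 and Tap2, the loading factor Tapbp, the immunoproteasome subunits Psmb8, Psmb9 and Psmb10, and the transactivator Nlrc5. They were named for their roles and not by a threshold on measured values, but with earlier results of these data known. All 10 genes averaged 1 FPKM or more across the 12 libraries, the level required for testing.

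The libraries came from the CD24hiTCRblo gate and fell into 3 groups, all labelled C57BL/6. Wild-type libraries (n = 5) and Bcl11bm/m libraries (n = 3) were from newborn thymus. Bcl11bm/m cells are homozygous for a hypomorphic allele that yields Bcl11b protein truncated at its C-terminal zinc finger. Bcl11bfl/fl:Cd4-Cre libraries (n = 4) were from mice in which a Cd4-Cre transgene, active around the DP stage, deletes floxed Bcl11b, and the labels give no age for them. Age and genotype therefore cannot be told apart in comparisons with this group. Genotypes follow the sample titles, because the description fields of both the wild-type and the Cre libraries contradict them. The extract protocol in the labels describes sorted DN NKT cells and a SMARTer kit, whereas the study's methods describe pre-selection DP thymocytes and a strand-specific kit, so the preparation behind these values is uncertain. The labels do not say whether the replicates of a group came from separate mice, so p-values measure the spread between these libraries.

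Class I molecules carry peptides of intracellular proteins to the cell surface, where CD8 T cells and their thymic precursors read them. Proteasomes cut the peptides, and 3 interferon-inducible subunits can replace the constitutive catalytic subunits to form the immunoproteasome. The Tap1 and Tap2 heterodimer pumps peptides into the endoplasmic reticulum, tapasin (Tapbp) couples it to empty class I molecules, and the complex of heavy chain and beta-2-microglobulin (B2m) leaves for the surface once a peptide is bound. Nlrc5 is the master transactivator of these genes and acts with factors bound at a conserved promoter module. DP thymocytes carry little surface class I, and the level rises as thymocytes mature.

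On NCBIM37 (mm9), 7 of the 10 genes lie in the MHC on chromosome 17. In map order these are Tapbp (chr17:34052844-34066235), H2-K1 (chr17:34132962-34137278, minus strand), Psmb9 (chr17:34318932-34324697, minus strand), Tap1 (chr17:34324498-34334170), Psmb8 (chr17:34334666-34338399), Tap2 (chr17:34340472-34353266) and H2-D1 (chr17:35399675-35404444). B2m lies outside it (chr2:121973422-121978819), as do Psmb10 (chr8:108459628-108462292, minus strand) and Nlrc5 (chr8:96996663-97051172), which GENCODE vM1 lists as a lincRNA although it encodes a protein. Psmb9 and Tap1 overlap head to head, and the B2m, Tap2, Psmb8 and Psmb10 models overlap genes on the opposite strand. The labels and the study's methods name different kits, of which the latter is strand-specific, and whether reads were counted by strand is not given in the sources used here, so reads of such overlapping pairs may not be separated. H2-K1 and H2-D1 share long near-identical stretches with other class I genes, and the estimation could split reads among them.

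Promoter sequences were looked up because members that move together are known to share regulatory elements. RefSeq entries (GRCm38.p6) were found for 8 of the 10 genes, with none for Tap2 and Nlrc5, and each matched NCBIM37 exactly once. The stretches below lie upstream of the RefSeq start sites and are written 5′ to 3′ on the strand of the gene, with coordinates on NCBIM37. Capitals mark matches to TGACG (the X2 box or CRE core), CCAAT (the Y box, ATTGG on the other strand), the interferon-stimulated response element core (TTTC, 2 bases of any kind, and TTTC again) or a kappa B core (GGG, 2 bases of any kind and TTTCC), searched on both strands over 250 bases. They also mark GGGGATTCC and GTTTCACTT, spellings of a kappa B site and an interferon element seen in the heavy chain promoters and then searched in all.
B2m, chr2:121973274-121973384, plus strand: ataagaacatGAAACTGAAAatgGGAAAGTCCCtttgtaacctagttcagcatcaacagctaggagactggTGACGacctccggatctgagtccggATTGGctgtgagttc
H2-K1, chr17:34137294-34137413, minus strand: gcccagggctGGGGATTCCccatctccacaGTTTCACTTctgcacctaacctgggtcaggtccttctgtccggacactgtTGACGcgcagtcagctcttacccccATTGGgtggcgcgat
H2-D1, chr17:35399858-35400000, plus strand: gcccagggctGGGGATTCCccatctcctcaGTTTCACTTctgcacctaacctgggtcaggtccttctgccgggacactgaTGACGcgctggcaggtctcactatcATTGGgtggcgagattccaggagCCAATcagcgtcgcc
Psmb9, chr17:34324276-34324429, minus strand, upstream of Tap1 as well: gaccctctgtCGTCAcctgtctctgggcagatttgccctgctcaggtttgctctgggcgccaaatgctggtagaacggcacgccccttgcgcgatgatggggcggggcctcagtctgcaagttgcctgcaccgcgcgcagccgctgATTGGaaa

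In B2m, H2-K1 and H2-D1, TGACG was followed by ATTGG after exactly 20 bases, a spacing noticed after the sequences were read. Of the 32851 promoters of full length in the table, 30 (0.0913%) held this pair, from 26 genes. Singly the motifs were common: CCAAT occurred upstream of 6 of the 8 genes against 33.8% of all promoters, and TGACG upstream of 5 of 8 against 17.8%. In those letters the response element core (2.98% of all promoters) and the kappa B core (1.41%) matched upstream of B2m alone of the 8, without overlap. H2-K1 and H2-D1 held the other spellings, GGGGATTCC (0.213% of all promoters) and GTTTCACTT (0.338%), chosen from these sequences after they were read, so their presence there is a description. The Psmb9 and Tap1 windows cover largely the same DNA, read from opposite strands. No match to the letters searched was found upstream of Psmb8 and Psmb10. The RefSeq starts of H2-D1, Psmb9, Psmb8 and Tapbp lie inside the longer GENCODE vM1 models. So do the stretches shown for H2-D1 and Psmb9 and the windows searched for Psmb8 and Tapbp. A match is a description of sequence only.

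In the check of the targeted gene, Bcl11b was 132, 286, 292, 158 and 223 FPKM over the wild-type libraries in replicate order, 430, 434 and 482 FPKM over Bcl11bm/m and 127, 140, 136 and 115 FPKM over the Bcl11bfl/fl:Cd4-Cre libraries. The value is summed over the gene and does not show which exons were read, so it does not check the mutations. Depth, estimated from the steps of low FPKM values, ranged from 3880000 to 6680000 fragments for wild-type. The Bcl11bm/m libraries had 2640000 to 4150000. Every Cre library was deeper, at 10800000 to 44100000 fragments, so depth and genotype cannot be told apart in that group. Of the genes that define the cells, Cd4, Cd8a and Cd24a were present in every library, with the lowest values at 281, 591 and 70.7 FPKM.

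B2m was the most abundant of the 10 mRNAs, and FPKM, being per length, allows levels to be compared between genes. In wild-type libraries its level was 555 ± 225 FPKM (SD, n = 5), followed by Psmb8 at 182 ± 57.1 and Tap2 at 121 ± 27.9 FPKM. The heavy chains stood below their light chain, H2-D1 at 83.9 ± 30.7 and H2-K1 at 30.3 ± 17.6 FPKM. Tap1 (42.1 ± 9.02 FPKM), Psmb9 (40.1 ± 14.6 FPKM), Tapbp (37.1 ± 8.30 FPKM), H2-K1 and Psmb10 (28.5 ± 9.80 FPKM) did not differ from their neighbours in this order beyond their spread. Nlrc5 was the least abundant, at 1.39 ± 0.977 FPKM.

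The members were not spread alike within groups. Among wild-type libraries the highest level was 4.67 times the lowest for Nlrc5 and 3.86 times for H2-K1, but 1.84 times for Tapbp and 1.88 times for Tap1. Wild-type replicate 1 was lowest for all 10 genes, as it was for 55.6% of all features tested. Bcl11bm/m replicate 1 was highest of its group for all 10 genes, as it was for 52.8% of features. Calls among the 10 genes are therefore given without these libraries too.

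**Figure D1:**
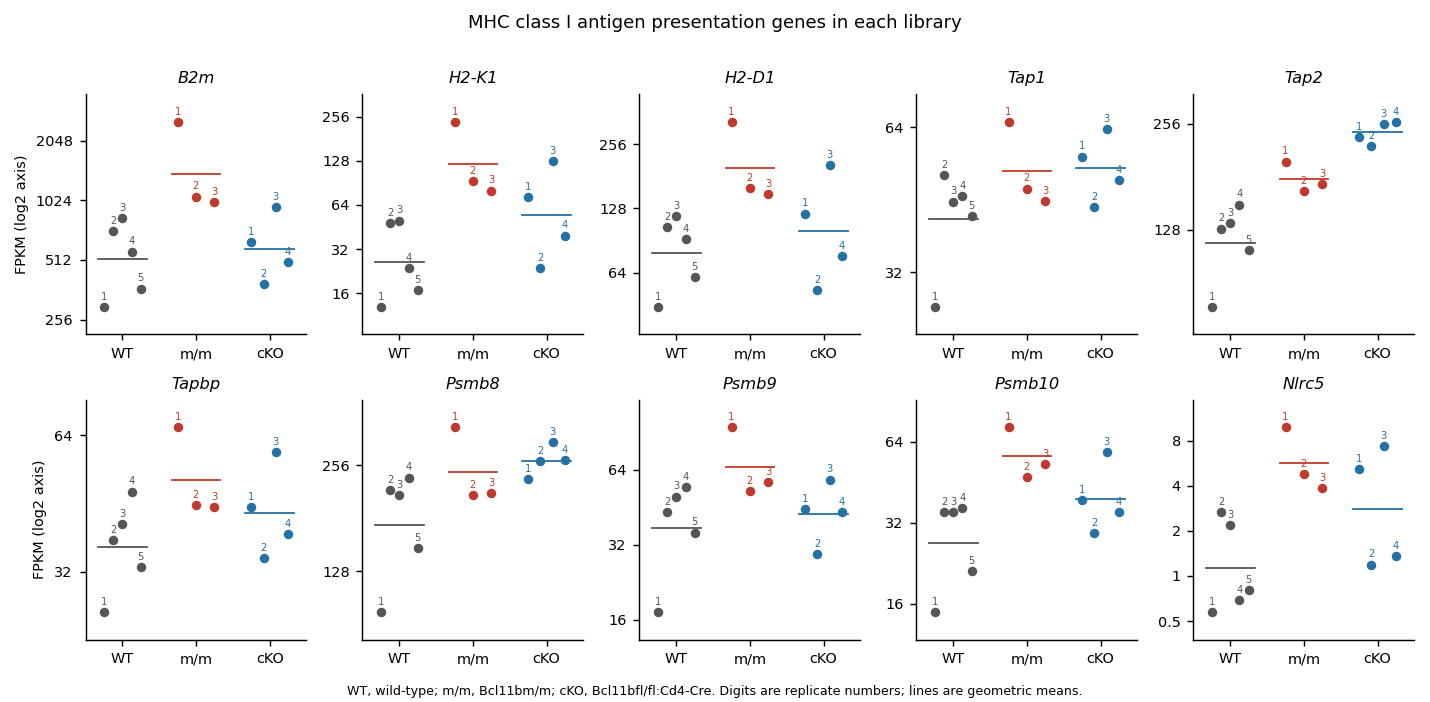
FPKM on a log2 axis of the 10 class I genes in each library, by group (wild-type, n = 5; Bcl11bm/m, n = 3; Bcl11bfl/fl:Cd4-Cre, n = 4), with digits for replicate numbers and lines for geometric means. All Bcl11bm/m libraries lie above all wild-type libraries for 6 genes (B2m, H2-K1, H2-D1, Tap2, Psmb10 and Nlrc5), and Bcl11bfl/fl:Cd4-Cre libraries do so for Tap2 only.

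To ask whether class I genes differ in thymocytes with truncated Bcl11b, Bcl11bm/m libraries were compared with wild-type. Heavy chains and their transactivator were higher: H2-K1 by 4.47-fold and H2-D1 by 2.49-fold on the log2(FPKM + 1) scale, and Nlrc5 by 1.58 in log2 on that scale. These 3 of 10 genes passed the test (limma, adjusted p under 0.05), where 9.92% of the 10780 features tested were called higher and 7.39% lower. None was called lower. In 6 of the 10 genes every mutant library exceeded every wild-type library, against 14.6% of all features. All 10 log2 fold changes were positive, with a median of 0.92 against -0.02 over all features. In such bulk samples more cells of a type and more RNA per cell cannot be told apart.

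H2-K1, the classical heavy chain K, was at 12.9, 48.1, 50.0, 23.8 and 16.7 FPKM in wild-type and at 236, 93.4 and 80.3 FPKM in Bcl11bm/m libraries. The lowest mutant library thus stood above the highest wild-type one (log2 fold change 2.16, SE 0.53, limma adjusted p = 0.0254). H2-D1, the other classical heavy chain of this strain, was at 44.2, 105, 118, 91.6 and 60.9 FPKM against 326, 159 and 150 FPKM. The groups did not overlap here either (log2 fold change 1.32, SE 0.38, limma adjusted p = 0.0459). Nlrc5 was at 0.575, 2.68, 2.19, 0.687 and 0.804 FPKM against 9.81, 4.78 and 3.85 FPKM, again without overlap (log2 fold change 1.58, SE 0.37, limma adjusted p = 0.0214). Its wild-type levels lie near the pseudocount, so that the fold change is understated.

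The light chain B2m was at 297, 716, 829, 564 and 367 FPKM in wild-type and at 2544, 1070 and 998 FPKM in Bcl11bm/m libraries. These groups did not overlap, but the difference missed the threshold (log2 fold change 1.43, 95% interval 0.43 to 2.44, limma adjusted p = 0.0589). The immunoproteasome subunit Psmb10 showed the same pattern, at 14.9, 35.0, 35.0, 36.4 and 21.1 against 72.6, 47.5 and 53.1 FPKM (log2 fold change 1.05, 95% interval 0.34 to 1.76, limma adjusted p = 0.0513). So did Tap2, at 77.4, 129, 134, 151 and 112 against 200, 165 and 173 FPKM (log2 fold change 0.60, SE 0.21, limma adjusted p = 0.0923). In the other 4 genes, Tap1, Tapbp, Psmb8 and Psmb9, the groups overlapped and log2 fold changes were 0.33 to 0.80 with adjusted p of 0.174 to 0.356.

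These calls rested on few libraries. With Bcl11bm/m replicate 1 left out, none of the 10 genes was called (limma, 5 at an unadjusted p under 0.05), and the log2 fold change of H2-K1 was 1.68 (adjusted p = 0.0922), that of H2-D1 0.96 (adjusted p = 0.155) and that of Nlrc5 1.24 (adjusted p = 0.0757). Dropping Bcl11bm/m replicate 2 or wild-type replicate 5 also left none (6 at an unadjusted p under 0.05 in each), dropping wild-type replicate 4 left 1, dropping Bcl11bm/m replicate 3 or wild-type replicate 2 left 2, and dropping wild-type replicate 1 gave 4. Without both replicates numbered 1, none was called (limma, 5 at an unadjusted p under 0.05) and the values were 1.44, 0.75 and 1.11. Over these fits all 10 differences kept their positive sign.

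To ask about deletion by Cd4-Cre, Bcl11bfl/fl:Cd4-Cre libraries were compared with the same wild-type libraries, so both comparisons share their controls. Tap2 rose, 2.05-fold, and was the only one of the 10 genes to pass the test (limma, adjusted p under 0.05), where 4.65% of features were called higher and 9.86% lower. None was called lower. Tap2 was at 235, 221, 255 and 259 FPKM, above the highest wild-type library at 151 FPKM (log2 fold change 1.03, SE 0.19, limma adjusted p = 0.00788). It was also the only gene of the 10 without overlap, against 5.44% of features. Tap2 was called with every single library left out, at a log2 fold change of 0.88 to 1.12 and an adjusted p of 0.00417 to 0.0302. After median-ratio scaling the share of called features that were higher was 46.4%, against 32.0% without it, and Psmb8 passed as well (log2 fold change 0.71, adjusted p = 0.0318).

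The heavy chains were spread widely among Bcl11bfl/fl:Cd4-Cre libraries. H2-K1 was at 72.7, 23.6, 128 and 39.5 FPKM, and H2-D1 at 121, 53.0, 205 and 76.6 FPKM. In both genes 2 of the 4 libraries exceeded all wild-type libraries and the others lay among them. The log2 fold change was 1.02 for H2-K1 (95% interval -0.16 to 2.20, limma adjusted p = 0.226) and 0.34 for H2-D1 (95% interval -0.55 to 1.24, adjusted p = 0.605). Nlrc5, at 5.16, 1.19, 7.36 and 1.36 FPKM, had a log2 fold change of 0.85 (95% interval -0.14 to 1.84, adjusted p = 0.229). B2m, at 632, 386, 949 and 497 FPKM, had a log2 fold change of 0.18 (95% interval -0.61 to 0.96, adjusted p = 0.778), and its sign turned without wild-type replicate 1 (-0.02) or without Bcl11bfl/fl:Cd4-Cre replicate 3 (-0.06).

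Psmb8 was at 98.1, 217, 211, 236 and 149 FPKM in wild-type, against 234, 263, 297 and 265 FPKM after deletion by Cd4-Cre. Replicate 1 of the latter fell just below the highest wild-type library, and the other 3 lay above all of them (log2 fold change 0.60, 95% interval 0.05 to 1.15, limma adjusted p = 0.131). Psmb10 had a log2 fold change of 0.52 (adjusted p = 0.256), Tap1 of 0.34 (adjusted p = 0.246), Tapbp of 0.24 (adjusted p = 0.446) and Psmb9 of 0.18 (adjusted p = 0.735). The sign for Psmb9 turned without wild-type replicate 1 (-0.08). The median over the 10 genes was 0.43 against -0.09 over all features.

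**Figure D2:**
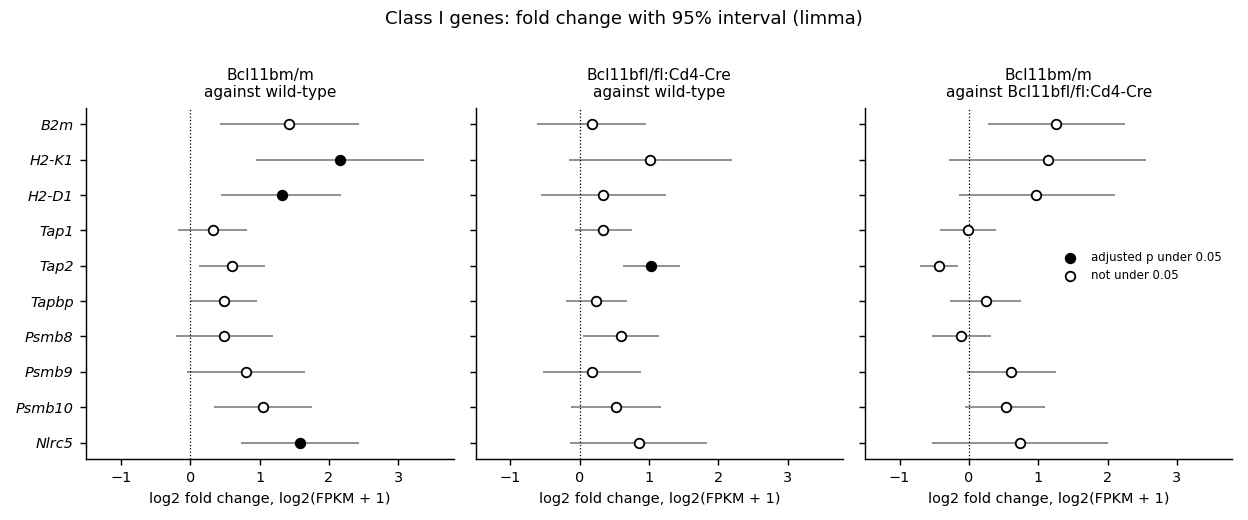
Log2 fold changes on the log2(FPKM + 1) scale with 95% intervals (limma) for the 10 genes in the 3 comparisons; filled points passed an adjusted p of 0.05. H2-K1, H2-D1 and Nlrc5 are filled for Bcl11bm/m against wild-type, Tap2 for Bcl11bfl/fl:Cd4-Cre against wild-type, and no gene in the direct comparison.

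In the direct comparison of the mutants, none of the 10 genes passed the test (limma), against 7.63% of features called higher and 2.60% called lower in Bcl11bm/m. At an unadjusted p under 0.05 there were 2 genes. All Bcl11bm/m values of B2m exceeded all those of the Cre libraries (log2 fold change 1.26, 95% interval 0.27 to 2.25, adjusted p = 0.102), the only gene of the 10 with this pattern, against 18.9% of features. Tap2 went the other way, with all 3 Bcl11bm/m libraries below all 4 Bcl11bfl/fl:Cd4-Cre libraries (log2 fold change -0.43, 95% interval -0.71 to -0.16, adjusted p = 0.0566). Tap2 passed without Bcl11bm/m replicate 1 (-0.52, adjusted p = 0.0443) and after median-ratio scaling (-0.55, adjusted p = 0.0170), which moved the median of all features from 0.091 to -0.013 and the share of called features higher in Bcl11bm/m from 74.6% to 51.6%. H2-K1 (1.14, 95% interval -0.29 to 2.56) and H2-D1 (0.97, SE 0.48, adjusted p = 0.229) were spread too widely to be told apart between the mutants. Tap1 (-0.02, 95% interval -0.42 to 0.39) and Psmb8 (-0.11, 95% interval -0.53 to 0.32) were near 0 and turned sign or reached 0.00 with single libraries left out.

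The Bcl11bfl/fl:Cd4-Cre libraries fell in a common order, noticed after the values were seen. In 8 of the 10 genes, all but Tap2 and Psmb8, replicate 3 was highest, then replicate 1, replicate 4 and replicate 2, an order that 4.38% of all features shared. Zbtb7b, which encodes Thpok, the CD4-lineage factor that pre-selection thymocytes normally keep silent, had this order too, at 33.1, 9.44, 56.6 and 23.8 FPKM in replicates 1 to 4. Wild-type libraries held 0 to 0.215 FPKM of Zbtb7b and Bcl11bm/m libraries 50.4, 46.5 and 41.1 FPKM. Across these 4 libraries H2-K1 varied 5.43-fold and Nlrc5 6.20-fold, whereas Tap2 varied 1.17-fold and Psmb8 1.27-fold. With 4 libraries the relation to Zbtb7b was given as an order only. The summed level of 13 myeloid markers was 15.6, 4.56, 49.4 and 10.5 FPKM in replicates 1 to 4, the same order. Fcer1g was at 10.4, 1.20, 42.2 and 8.43 FPKM, most of the sum in all but replicate 2, while Lyz2 did not follow the order (1.46, 0.107, 0.433 and 0.172 FPKM). That of 6 NK cell markers was 148, 66.2, 184 and 79.7 FPKM, in the same order and mostly Gzma (139, 64.3, 160 and 76.4 FPKM). Klrb1c had this order (5.14, 0.299, 21.8 and 2.11 FPKM), whereas Prf1 was highest in replicate 1 and lowest in replicate 3. Of the maturation markers, Il7r (4.08, 1.45, 8.96 and 1.55 FPKM), S1pr1 (1.14, 0.772, 3.76 and 1.02 FPKM) and Ms4a6b (12.6, 7.29, 22.5 and 8.94 FPKM) had the order as well. Klf2 was highest in replicate 3 (34.8 FPKM), and the DP genes Rag1 (438 FPKM) and Ccr9 (43.8 FPKM) were lowest there. Cd69 (14.8 FPKM), Cd5 (98.1 FPKM) and Bcl2 (2.87 FPKM) were instead highest in replicate 2. The summed level of the 10 maturation markers did not have the order (138, 196, 297 and 118 FPKM). Pdgfrb, listed as a mesenchymal marker, had the order too (6.94, 3.33, 12.7 and 6.82 FPKM). The other 6 genes of its list stayed under 1 FPKM in every library, with Col3a1 at 0 and Col1a1 at most at 0.359 FPKM. The part of any of these in the order of the class I genes was not tested.

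**Figure D3:**
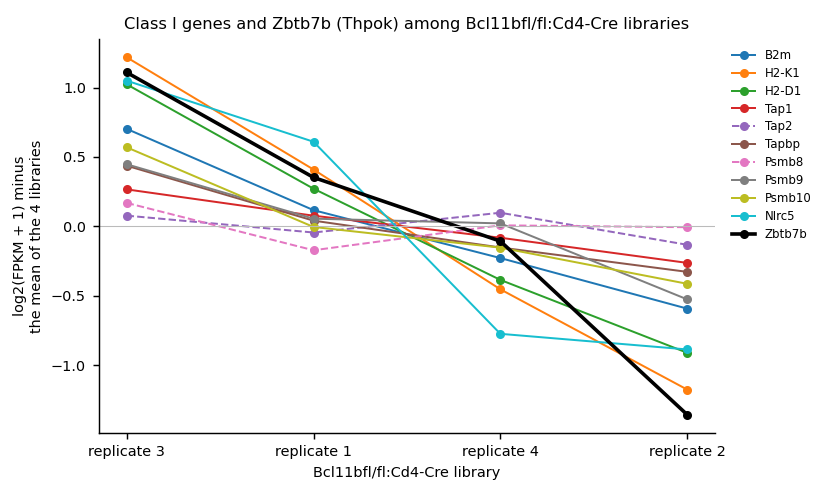
Log2(FPKM + 1) of the 10 class I genes and Zbtb7b in each Bcl11bfl/fl:Cd4-Cre library, less the mean of the 4 libraries; dashed lines are Tap2 and Psmb8, and the heavy black line is Zbtb7b. From left to right 8 of the 10 genes fall at each step, as does Zbtb7b.

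Immunoproteasome subunits were set against the constitutive subunits they replace, as log2 ratios within each library, which are free of library scaling. Psmb8 over Psmb5 was 1.72 ± 0.18 (SD, n = 5) in wild-type, 2.61 ± 0.01 (n = 3) in Bcl11bm/m and 2.50 ± 0.09 (n = 4) in Bcl11bfl/fl:Cd4-Cre libraries. Every mutant library stood above every wild-type library, and the tightness was greatest in Bcl11bm/m, where the ratios were 2.62, 2.60 and 2.62. The differences from wild-type were 0.89 (exact two-sided permutation p = 0.0357) and 0.78 (exact permutation p = 0.0159), both with an adjusted p of 0.0643 over the 9 ratio tests. With 56 and 126 arrangements of the libraries, these are the smallest p-values that the permutation test can give.

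Psmb9 over Psmb6 was -1.38 ± 0.28 in wild-type, -0.26 ± 0.21 in Bcl11bm/m and -0.67 ± 0.46 in Bcl11bfl/fl:Cd4-Cre libraries. Bcl11bm/m again lay apart from wild-type (difference 1.12, exact permutation p = 0.0357, adjusted p = 0.0643), while Bcl11bfl/fl:Cd4-Cre overlapped it (0.71, exact permutation p = 0.0476, adjusted p = 0.0714). Psmb10 over Psmb7 was -2.12 ± 0.30, -0.86 ± 0.04 and -1.31 ± 0.48, with differences from wild-type of 1.26 (exact permutation p = 0.0357, adjusted p = 0.0643) and 0.82 (exact permutation p = 0.0317, adjusted p = 0.0643). Between the mutants the differences were 0.11, 0.41 and 0.45 (exact permutation p of 0.0571 to 0.286). None of the 9 tests passed 0.05 after adjustment, 6 passed before it, and the 6 against wild-type kept their sign with each library left out. For most of the tests the number of libraries had fixed this outcome. Between the mutants, with 35 arrangements, 0.0571 is the smallest exact permutation p possible. Those of Bcl11bm/m against wild-type were at their smallest possible p, which cannot pass after adjustment over the 9 tests.

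**Figure D4:**
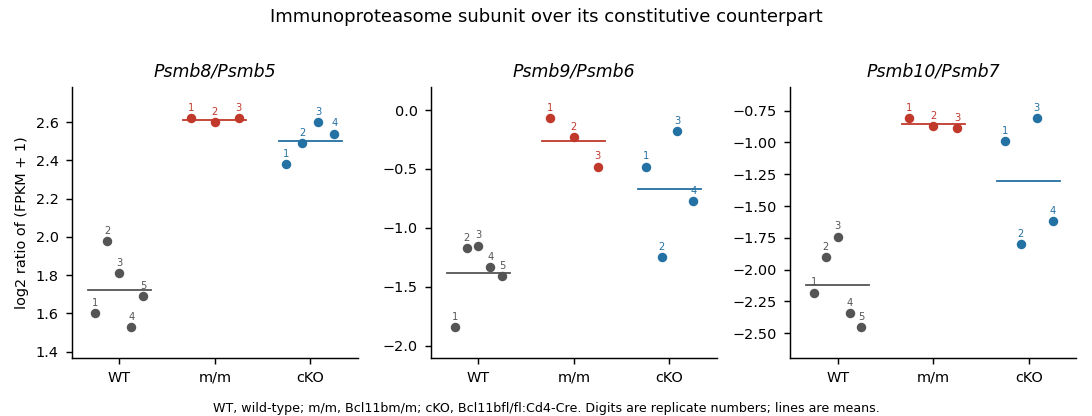
Log2 ratio of (FPKM + 1) of each immunoproteasome subunit to its constitutive counterpart in each library, with replicate numbers and group means as lines. All Bcl11bm/m libraries lie above all wild-type libraries in each ratio, and Bcl11bfl/fl:Cd4-Cre libraries do so for Psmb8/Psmb5 only.

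The constitutive 20S proteasome genes were read for comparison. None of the 14 genes was called in any comparison (limma; at an unadjusted p under 0.05, none against wild-type in Bcl11bm/m, 3 lower in Bcl11bfl/fl:Cd4-Cre and 2 higher in Bcl11bm/m between the mutants). Without wild-type replicate 1, 7 of them were called lower in Bcl11bfl/fl:Cd4-Cre, and 3 in Bcl11bm/m when Bcl11bm/m replicate 1 was left out as well. Their median log2 fold change was -0.25 in Bcl11bm/m and -0.30 in Bcl11bfl/fl:Cd4-Cre against wild-type. The partners of the ratios were among them, so the ratios rest on both members of a pair: Psmb5 was at -0.39 and -0.18, Psmb6 at -0.32 and -0.53 and Psmb7 at -0.21 and -0.29. Of 9 activator and assembly genes, Psmg1, an assembly chaperone, fell in both mutants (-0.68, SE 0.14, limma adjusted p = 0.0110, and -0.56, SE 0.11, adjusted p = 0.0106). It was the only one called against wild-type, near the shares of all features called lower (7.39% and 9.86%). Between the mutants Psme4 alone was called, higher in Bcl11bm/m (0.56, SE 0.11, limma adjusted p = 0.0217), where 7.63% of all features were. With a library left out 0 to 1 of the 9 were higher there. Psme1 and Psme2, which encode the interferon-inducible PA28 cap, were at 0.25 and 0.61 in Bcl11bm/m against wild-type (adjusted p = 0.557 and 0.272) and at 0.03 and 0.02 in Bcl11bfl/fl:Cd4-Cre (adjusted p = 0.934 and 0.972).

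Of 17 peptide loading and trimming genes, 2 rose and 1 fell in Bcl11bm/m against wild-type (limma), near the shares of all features (9.92% higher and 7.39% lower). The count that rose was 1 without Bcl11bm/m replicate 1 or 3, and 2 fell without wild-type replicate 1. Erap1, the aminopeptidase that trims peptides in the endoplasmic reticulum, was at 24.8, 24.5 and 26.3 FPKM against 10.8 to 17.9 FPKM (log2 fold change 0.84, SE 0.17, adjusted p = 0.0107). Tapbpl, the tapasin relative that edits peptides, rose as well (0.55, SE 0.12, adjusted p = 0.0191). Npepps, a cytosolic aminopeptidase, fell in Bcl11bm/m (-1.02, SE 0.12, adjusted p = 7.86e-04) and in Bcl11bfl/fl:Cd4-Cre (-0.67, SE 0.16, adjusted p = 0.0257). In the latter Hsp90b1, an endoplasmic reticulum chaperone, fell too (-0.44, SE 0.13, limma adjusted p = 0.0445), and none of the 17 rose (none at an unadjusted p under 0.05). The 2 that fell there were near the share of all features called lower (9.86%, with 4.65% higher). That count of fallen genes was 0 to 6 with a library left out, 6 without wild-type replicate 1, 1 if wild-type replicate 5 or Cre replicate 2 was dropped and 0 for any other. Between the mutants Erap1 was higher in Bcl11bm/m (0.61, SE 0.10, limma adjusted p = 0.0169). It was the only one of the 17 called, where 7.63% of all features were called higher and 2.60% lower. None of the 17 was called without Bcl11bm/m replicate 2 or 3, and 2 were called without Bcl11bm/m replicate 1 or Cre replicate 3. The median over the list was -0.08 in Bcl11bm/m and -0.16 in Bcl11bfl/fl:Cd4-Cre against wild-type.

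Other class I and class I-like chains went in both directions. Of 24 such chains with values, 21 were tested. In Bcl11bm/m 5 rose and 2 fell against wild-type (limma), where 9.92% of all features were called higher and 7.39% lower. The fallen numbered 1 without any single Bcl11bm/m library and without wild-type replicate 2 or 4. The risen were all Q-region genes: H2-Q9 (log2 fold change 4.39), H2-Q6 (2.89), H2-Q8 (2.44), H2-Q7 (1.76) and H2-Q4 (0.68). H2-Q8 was at 7.27, 9.76, 6.97, 6.08 and 7.12 FPKM in wild-type and at 82.9, 36.6 and 28.5 FPKM in Bcl11bm/m libraries, with no overlap (SE 0.32, adjusted p = 0.00147). H2-Q9 was listed at 1.00e-04 or 2.00e-04 FPKM in 4 wild-type libraries, which near-identical copies can produce when reads are split, and the values of single Q genes are uncertain for this reason. Mr1, which presents vitamin metabolites to MAIT cells, fell in Bcl11bm/m (-0.87, SE 0.14, adjusted p = 0.00355) and in Bcl11bfl/fl:Cd4-Cre (-0.72, SE 0.19, adjusted p = 0.0336). H2-T22, a ligand of some gamma-delta T cell receptors, fell in Bcl11bm/m (-0.94, SE 0.25, adjusted p = 0.0350).

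In Bcl11bfl/fl:Cd4-Cre libraries 1 of the 21 chains rose and 4 fell, against 4.65% of all features higher and 9.86% lower, and 3 of the fallen were Q-region genes. Other Q genes were not called, with H2-Q6 at 0.66 (adjusted p = 0.259) and H2-Q8 at 0.38 (adjusted p = 0.465). H2-Q2 was at 47.7, 63.7, 28.1 and 54.6 FPKM, all below the lowest wild-type value of 76.8 FPKM (log2 fold change -1.35, SE 0.28, limma adjusted p = 0.0127). H2-Q1 (-1.12, adjusted p = 0.0403), H2-Q4 (-0.50, adjusted p = 0.0429) and Mr1 were the others that fell. H2-K2, a neighbour and close relative of H2-K1, rose to 35.3, 23.2, 43.8 and 32.5 FPKM from 11.7 to 19.3 FPKM (1.99-fold, 95% interval of the log2 fold change 0.57 to 1.42, adjusted p = 0.0101). The count of fallen chains was 2 when Cre replicate 2 or 3 was dropped, and 1 when Cre replicate 1 or 4 or any wild-type library but replicate 1 was dropped. Dropping Cre replicate 2 gave 3 chains that rose. Between the mutants 7.63% of all features were called higher in Bcl11bm/m and 2.60% lower. Of the 21 chains 4 were higher there, H2-Q8 (2.06), H2-Q2 (1.35), H2-Q1 (1.20) and H2-Q4 (1.18), with limma adjusted p of 0.0189 to 0.0467. That count was 0 without Bcl11bm/m replicate 2 or Cre replicate 1, 1 without Bcl11bm/m replicate 1 or 3, and 2 without Cre replicate 2 or 4.

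Several T-region genes differed widely among Bcl11bfl/fl:Cd4-Cre libraries, and they were singled out after their values were seen. H2-T3, which encodes the thymus leukaemia antigen, was at 95.6 and 141 FPKM in replicates 1 and 4 but at 1.14 and 0.602 FPKM in replicates 2 and 3, against 0.679 to 1.52 FPKM in the 8 wild-type and Bcl11bm/m libraries. H2-T10 was at 143 and 185 FPKM in replicates 1 and 4 and at 10.6 to 31.2 FPKM in the other 10 libraries. H2-T22 (110 and 145 FPKM against 7.13 to 24.3 FPKM) and H2-Bl (17.2 and 28.7 FPKM against 2.73 to 6.95 FPKM) shared the split. Thymus leukaemia antigen is known to be present on thymocytes of some inbred mouse strains and absent from those of others. All libraries are labelled with a single strain. The class I alleles of the libraries were not checked, and FPKM of H2-K1, H2-D1, H2-K2 and the Q and T genes, estimated on mm9, would depend on them. Tapbp, Psmb9, Tap1, Psmb8 and Tap2 lie in the MHC as well, and their alleles were not checked either. Among these is Tap2, called in Bcl11bfl/fl:Cd4-Cre against wild-type. Genes outside the MHC also separated replicates 1 and 4 from 2 and 3: Ptcra was at 67.0 and 64.7 against 27.0 and 8.97 FPKM, Cd69 at 4.61 and 3.48 against 14.8 and 12.2 FPKM, and Cd5 at 23.7 and 35.2 against 98.1 and 73.3 FPKM. Their part in the split of the T region was not tested. The split was not that of H2-K1, H2-D1 or B2m, for which replicate 3 was highest. As groups, Bcl11bfl/fl:Cd4-Cre and wild-type did not pass the test for H2-T3 (log2 fold change 2.82, SE 1.28, limma adjusted p = 0.167).

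**Figure D5:**
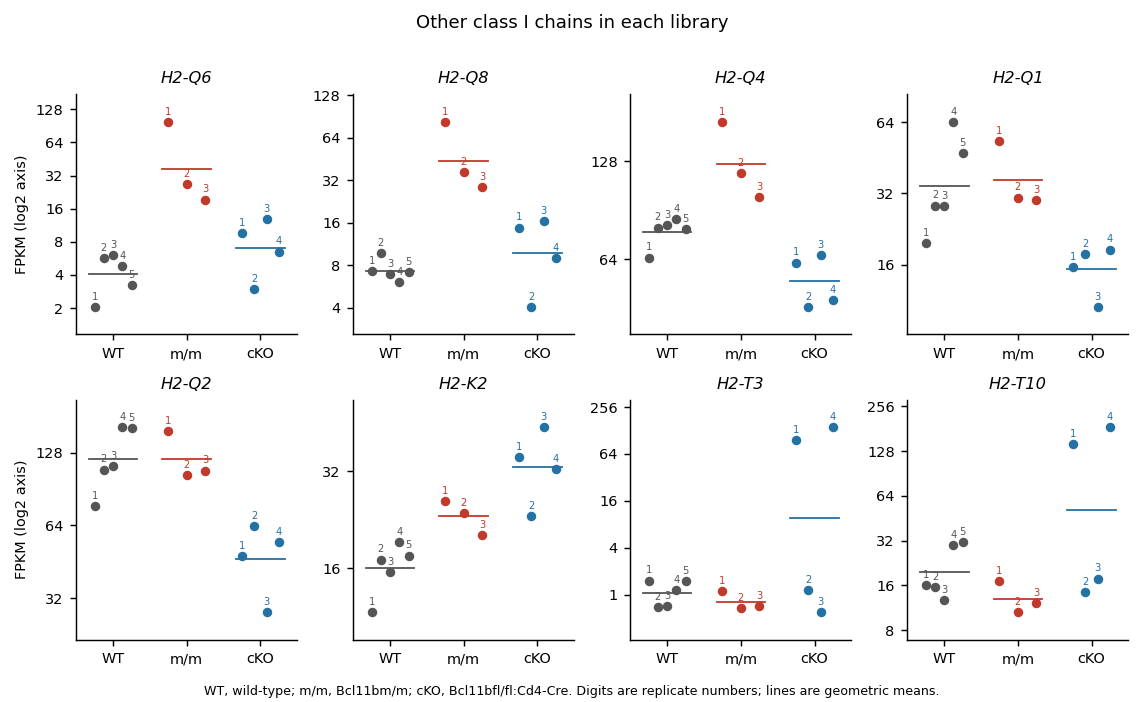
FPKM on a log2 axis of 8 other class I chains in each library, by group, with replicate numbers and geometric means as lines. H2-Q6 and H2-Q8 are high in Bcl11bm/m libraries, H2-Q1 and H2-Q2 are low in Bcl11bfl/fl:Cd4-Cre libraries, and H2-T3 and H2-T10 are high in Bcl11bfl/fl:Cd4-Cre replicates 1 and 4 alone.

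Of 25 regulators of class I genes 24 were tested. In Bcl11bm/m 6 rose and 1 fell against wild-type (limma), where 9.92% of all features were called higher and 7.39% lower. The count that fell was 3 without wild-type replicate 1. With Bcl11bm/m replicate 2 or 3 dropped the count that rose was 4. Irf1, an activator of interferon response elements, was at 119, 63.1 and 59.9 FPKM against 16.5 to 28.7 FPKM (log2 fold change 1.64, SE 0.26, adjusted p = 0.00390). Ifngr1, a chain of the interferon-gamma receptor, was at 852, 868 and 810 FPKM against 189 to 323 FPKM (1.60, SE 0.20, adjusted p = 0.00107). The NF-kappaB subunit gene Nfkb1 (1.52), the kinases Jak1 (0.69) and Tyk2 (0.60) and Irf2 (0.46) made up the rest, and Nfya, a subunit of the CCAAT-binding factor, fell (-0.65). The X box factor gene Rfx5 was at -0.17 (adjusted p = 0.612).

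In Bcl11bfl/fl:Cd4-Cre against wild-type 3 of the 24 regulators rose and 1 fell, where 4.65% of all features were called higher and 9.86% lower. Irf1 was at 49.2, 30.5, 98.2 and 52.4 FPKM, above all wild-type libraries (log2 fold change 1.11, SE 0.29, limma adjusted p = 0.0330). Nfkb1 (0.99, adjusted p = 0.0139) and Tyk2 (0.56, adjusted p = 0.0347) also rose, and Nfyb fell (-0.87, adjusted p = 0.0174). The count that rose was 1 when Cre replicate 1, 3 or 4 or wild-type replicate 2 or 5 was dropped. None fell when Cre replicate 1, 3 or 4 was dropped, and 2 fell when wild-type replicate 1 was. Ifngr1, at 355, 273, 377 and 363 FPKM, differed between the mutants (1.31 higher in Bcl11bm/m, SE 0.15, limma adjusted p = 0.00482), as did Jak2 (0.45, adjusted p = 0.0342). These were 2 of the 24 regulators, where 7.63% of all features were called higher in Bcl11bm/m and 2.60% lower. Their count was 1 instead of 2 when any Bcl11bm/m library or Cre replicate 1, 2 or 4 was dropped.

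Interferon-stimulated genes outside class I separated the comparisons. Of 31 tested, 15 rose and none fell in Bcl11bm/m against wild-type (limma), where 9.92% of all features were called higher and 7.39% lower. None of the 31 fell at an unadjusted p under 0.05, and their median log2 fold change was 0.90. Several myeloid and NK cell markers, given with the other cell types, rose in this comparison too, and their part in the count was not tested. Irf7, a regulator of type I interferon genes, was at 36.8, 21.2 and 13.7 FPKM against 2.81 to 10.7 FPKM (1.76, SE 0.40, adjusted p = 0.0192). Oasl1 (1.83), the GTPase gene Iigp1 (1.57) and Xaf1 (1.54) were the other leading genes. Fewer passed with a library left out: 7 without Bcl11bm/m replicate 1, 8 when replicate 2 of that group or replicate 5 of wild-type was dropped, and 10 without Bcl11bm/m replicate 3 as well as without replicate 3 of wild-type. In Bcl11bfl/fl:Cd4-Cre against wild-type 4.65% of all features were called higher and 9.86% lower. None of the 31 rose there (3 at an unadjusted p under 0.05) and Eif2ak2 fell (-0.49, limma adjusted p = 0.0447), with a median of 0.10. None fell when any Cre library or wild-type replicate 2, 3 or 5 was dropped, and 1 rose when Cre replicate 2 or wild-type replicate 1 was. In the direct comparison 5 were higher in Bcl11bm/m and none was lower, where 7.63% of all features were called higher and 2.60% lower. Among the 5, Ifit2 was at 22.8, 20.4 and 19.2 against 7.15 to 9.70 FPKM (1.13, SE 0.13, limma adjusted p = 0.00472). Myeloid and erythroid markers, given with the other cell types, moved the same way in this comparison, and their part in the count was not tested. The direct count was 11 without Bcl11bfl/fl:Cd4-Cre replicate 3, 2 without Bcl11bm/m replicate 2 or Bcl11bfl/fl:Cd4-Cre replicate 1, and 3 without Bcl11bm/m replicate 3 or Bcl11bfl/fl:Cd4-Cre replicate 2 or 4.

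Markers of maturation and of other cell types were read in the same libraries. Of 10 post-selection thymocyte markers 7 rose and 1 fell in Bcl11bm/m (limma), where 9.92% of all features were called higher and 7.39% lower. Among those that rose were the interleukin-7 receptor gene Il7r (25.8, 13.3 and 12.2 FPKM against at most 0.0885 FPKM, log2 fold change 4.04, limma adjusted p = 1.52e-05) and the egress factor gene Klf2 (2.59, adjusted p = 0.00216). Cd5 fell (-1.37, adjusted p = 0.0122). In Cre libraries, where 4.65% of all features were called higher and 9.86% lower, 3 of these markers rose, Klf2 (2.23), Il7r (2.01) and S1pr1 (1.27). Cd69 fell (-1.46), and the median over the list was 0.06. None fell when Cre replicate 1 or 4 or any wild-type library but replicate 1 was dropped. Of 12 DP markers 7 fell in Bcl11bm/m, against 7.39% of all features, among them Ptcra (-2.22), Ccr9 (-1.75), Cd24a (-1.15) and Cd4 (-0.99). In Bcl11bfl/fl:Cd4-Cre 3 of the 12 fell, against 9.86% of all features: Ccr9 (-1.43), Cd24a (-1.15) and Themis (-0.47). The count was 4 in Bcl11bm/m when its replicate 2 was dropped. After deletion by Cd4-Cre it was 6 when wild-type replicate 1 was dropped and 1 when Cre replicate 3 or 4 or wild-type replicate 2, 3 or 5 was.

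Of all features, 9.92% were called higher and 7.39% lower in Bcl11bm/m against wild-type, and 4.65% and 9.86% in Cre libraries. Between the mutants 7.63% were higher in Bcl11bm/m and 2.60% lower. Summed over 13 myeloid markers, the level was 142, 54.2 and 36.9 FPKM in Bcl11bm/m replicates 1 to 3. It was 9.40 to 23.5 FPKM in wild-type and 4.56 to 49.4 FPKM in Bcl11bfl/fl:Cd4-Cre libraries. Of 8 tested, 4 were called higher in Bcl11bm/m (Fcer1g, Tyrobp, C1qb and Mpeg1), or 2 when Bcl11bm/m replicate 1 or 2 or wild-type replicate 5 was dropped. Of the 8 log2 fold changes 7 were positive. Itgam went the other way, at 0.571 to 0.791 FPKM against 0.759 to 4.63 FPKM in wild-type (-0.97, limma adjusted p = 0.140). S100a8 and S100a9 were at 0 in every Bcl11bm/m and wild-type library. In Bcl11bfl/fl:Cd4-Cre against wild-type none of the 8 was called higher (limma, 1 at an unadjusted p under 0.05) and 4 fell, Lyz2 (-2.05), C1qb (-1.43), C1qa (-1.33) and Mpeg1 (-0.62). The monocyte marker Cd14 was at 0 in all 3 groups but for 1 library in each of wild-type and Bcl11bm/m, at most 0.194 FPKM. The 8 B cell markers summed to 38.3, 9.37 and 10.5 FPKM in Bcl11bm/m, 14.1 to 21.7 FPKM in wild-type and 13.5 to 29.7 FPKM in Cre libraries, with Cd79a at 10.7 FPKM in Bcl11bm/m replicate 1. Cd79a rose in Cre libraries, all 4 of which exceeded all wild-type libraries (1.02, limma adjusted p = 0.0237), and no B cell marker was called there when wild-type replicate 4 or 5 was dropped. The 6 NK cell markers summed to 416, 215 and 227 FPKM in Bcl11bm/m against 18.5 to 71.1 FPKM in wild-type, mostly Gzma (409, 202 and 217 FPKM). Klrb1c was at 0.301 FPKM in Bcl11bm/m replicate 1, within the wild-type range of 0 to 0.605 FPKM. In replicates 2 and 3 it was at 6.94 and 5.41 FPKM. Gzmb was at 0 in every Bcl11bm/m and wild-type library. All 3 tested markers were called higher, Gzma (2.99, limma adjusted p = 0.00309), Klrb1c (1.83, adjusted p = 0.0494) and Prf1 (0.86, adjusted p = 0.0264). With any single library left out 1 or 2 of them were called. After deletion by Cd4-Cre, Gzma rose (1.64, limma adjusted p = 0.0276) and Prf1 fell (-0.80, adjusted p = 0.0257). With a library left out 0 to 2 of the 3 were called higher in Cre libraries and 0 to 1 lower. Ncr1 was at 0 in 11 of 12 libraries. Of 8 dendritic cell markers Flt3 was called (2.86, 4.42 and 5.81 FPKM against at most 0.218 FPKM), and Zbtb46 and Clec9a did not exceed 0.0959 FPKM. The 8 thymic epithelial markers summed to 5.20 to 7.39 FPKM in wild-type, 3.81 to 7.42 FPKM in Bcl11bm/m and 3.90 to 5.08 FPKM in Cre libraries, with Foxn1 and Aire at most at 0.187 FPKM and Ccl25 at 0.831 to 4.43 FPKM. Of 3 tested, Epcam fell in Bcl11bm/m (-1.61, limma adjusted p = 9.20e-04) and in Cre libraries (-1.18, adjusted p = 0.00814). Pdgfrb, the only one of 7 endothelial and mesenchymal markers tested, rose in both (1.58, adjusted p = 0.0154, and 2.27, adjusted p = 0.00517), but not in Bcl11bm/m when its replicate 1 or 2 was dropped. The other 6 were under 1 FPKM in every library. Bcl11bm/m replicate 1, with the highest myeloid and B cell sums, was also highest for all 10 class I genes, and the part of other cells in these levels was not tested. Between the mutants 6 of 8 myeloid markers were called higher in Bcl11bm/m (limma, median log2 fold change 2.24), or 3 when its replicate 2 was dropped and 4 when its replicate 3 or Cre replicate 2 or 4 was, as were Flt3 (1.98, adjusted p = 0.00706) and Prf1 (1.65, adjusted p = 0.00232). The 6 erythroid markers summed to 2.37 to 34.6 FPKM in wild-type, 10.6 to 29.8 FPKM in Bcl11bm/m and 0.850 to 5.07 FPKM in Cre libraries. Of 3 tested none was called against wild-type (limma; 1 lower in Cre libraries at an unadjusted p under 0.05), and Hba-a1 (2.45, adjusted p = 0.0162) and Hbb-b2 (2.26, adjusted p = 0.0263) were higher in Bcl11bm/m between the mutants, with neither called when Bcl11bm/m replicate 2 or Cre replicate 1 was dropped and 1 called when Bcl11bm/m replicate 1 or Cre replicate 2 was. In Bcl11bm/m replicates 2 and 3 the B cell sums lay below those of all wild-type libraries, and the myeloid and NK cell sums lay above them. Most of these B cell sums was Cd79b (5.85 and 7.60 FPKM against 12.4 to 20.7 FPKM in wild-type). Vpreb3 went the other way (1.82 and 2.37 FPKM against at most 1.08 FPKM). Cd79a was at 1.08 and 0.210 FPKM against 0.217 to 0.446 FPKM.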

How the data were processed

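RNA-seq of 12 libraries in 3 groups was analysed. Reads had been mapped by TopHat2 and FPKM estimated by Cufflinks with the iGenome annotation. The submitters' processing notes list TopHat2 2.8.0, Cufflinks 2.1.1 and mm9. The FPKM deposited by the authors are relative to gene length and mapped fragments, and no scaling between libraries is stated. All columns mapped to a sample by title.

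Features averaging 1 FPKM or more were compared as log2(FPKM + 1) with limma 3.58.1 (R 4.3.3), using a mean-variance trend and only the libraries of the 2 groups in question. Tests were two-sided, and p-values were adjusted by Benjamini-Hochberg over all features at 0.05. The fit was tested on simulated data. Subunit ratios were tested by exact two-sided permutation, adjusted over 9 tests. Python 3.11.15 (pandas 2.3.3, numpy 2.4.6, scipy 1.17.1, matplotlib 3.10.9) did the rest. The 10 genes and all lists were chosen with earlier results of these data known. Named were all 10 genes, Bcl11b, the 3 partner subunits and up to 4 called genes per list and comparison with the largest changes; any other gene was picked with its values in view.

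Estimates of depth came from single-transcript genes, where 61.8 to 69.2% of the low values lay within 0.1 of whole multiples of a step, against 20% if even, assuming fragments of 150 bases. Such depths are estimates, and limits from counting were not computed. Alternatives were another pseudocount, filter and scaling, a fit to all 3 groups, library quality weights, the replicate number as a block and each library left out. The pairs of libraries left out and the counts of lists under each setting were added after the data were seen.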

Additional observations from a re-analysis of the deposited data

Results flagged for a closer look

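In groups of 4 and 5 libraries, the highest or lowest library was compared with the rest by the gap to its neighbour over the range (Dixon, 95% critical value), on log2(FPKM + 1). Of 184 groups of values, 15 stood out, where chance gives about 1 in 20. None was a value of the 10 class I genes or of a subunit ratio.

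Among other class I chains, H2-Q9 was at 3.12 FPKM in wild-type replicate 2 and at 1.00e-04 to 2.00e-04 FPKM in the other wild-type libraries. H2-Q4 was at 64.8 FPKM in wild-type replicate 1 against 79.3 to 84.9 FPKM. The chaperone gene Hsp90b1 was at 49.3 FPKM in Bcl11bfl/fl:Cd4-Cre replicate 4 against 64.7 to 67.9 FPKM.

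Among regulators and interferon-stimulated genes, Ifngr1 (189 FPKM against 293 to 323 FPKM) and Nfkb1 (17.6 FPKM against 23.3 to 25.8 FPKM) were low in wild-type replicate 1. Iigp1 was high in wild-type replicate 2 (0.738 FPKM against 0.0600 to 0.223 FPKM), and Ifit2 was low in Bcl11bfl/fl:Cd4-Cre replicate 1 (7.15 FPKM against 9.53 to 9.70 FPKM).

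Among thymocyte and other markers, Ms4a4b was low in wild-type replicate 1 (2.25 FPKM against 5.82 to 8.21 FPKM) and high in Bcl11bfl/fl:Cd4-Cre replicate 3 (20.2 FPKM against 5.11 to 6.28 FPKM). Flt3 was high in the latter too (0.872 FPKM against 0.132 to 0.226 FPKM). Cd79a was low in wild-type replicate 4 (0.217 FPKM against 0.384 to 0.446 FPKM). The haemoglobin genes Hba-a1 (2.99 FPKM against 0.456 to 0.631 FPKM) and Hbb-b2 (1.81 FPKM against at most 0.0507 FPKM) were high in Bcl11bfl/fl:Cd4-Cre replicate 4, and Hbb-b2 was high in wild-type replicate 4 (11.1 FPKM against at most 0.174 FPKM). Zbtb7b was at 0.215 FPKM in wild-type replicate 3 against at most 0.0471 FPKM.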

How the results depend on the processing

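For Bcl11bm/m against wild-type, where 3 of the 10 genes were called, 1 was called without the filter on low values (Nlrc5), 1 at a mean of at least 5 FPKM (H2-K1; Nlrc5 had no value there), 6 after median-ratio scaling, 5 with all 3 groups in a single fit, 5 with library quality weights, and 0 to 4 with a library left out, with 0 also when both libraries numbered 1 were left out. With a replicate block 0 were called (none at an unadjusted p under 0.05). Same-numbered libraries deviated from their group means with correlations of -0.211 to 0.152. With so few libraries these values do not settle whether same-numbered libraries were prepared together. For Bcl11bfl/fl:Cd4-Cre against wild-type the count was 1 throughout, with the block and with single libraries left out, but 2 after median-ratio scaling. Between the mutants it was 0, and 1 after median-ratio scaling, 1 with library quality weights, 0 with the block and 0 to 1 with a library left out. The cause of these changes was not tested.

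Signs turned for values that were not called. In Bcl11bfl/fl:Cd4-Cre against wild-type, B2m was -0.11 with library quality weights, -0.06 to 0.37 with a library left out and -0.26 without both wild-type replicate 1 and Bcl11bfl/fl:Cd4-Cre replicate 3. Without that pair Psmb9 was -0.23, H2-D1 -0.20 and Tapbp -0.02, and with a single library left out Psmb9 was -0.08 to 0.36. Between the mutants Tap1 was -0.18 to 0.09 and Psmb8 -0.31 to 0.00 with a library left out. The ratios kept their sign at a pseudocount of 0.1 and with each library left out; with so few arrangements of the libraries, their adjusted p says nothing of stability. Nlrc5, at 0.575 to 2.68 FPKM in wild-type, lies close to the pseudocount, and depth was only estimated.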
